A study of Mus musculus with 8 samples.

Results

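The genes examined here are 9 genes commonly used to mark macrophages that descend from blood monocytes and macrophages that accumulate in tumors: *C1qa*, *C1qb*, *C1qc*, *Csf1r*, *Adgre1*, *Ccr2*, *Cx3cr1*, *Trem2* and *Ms4a7*. They were chosen by name as genes known from these cells, with earlier results of these data in view. All 9 were among the 48709 genes of the count table, and all 9 passed the filter on low counts that left 14929 genes for testing. RNA had been sequenced from 8 lung tumors of mice of the Cre-dependent *K* model, which are of a mixed strain background. Tumors were started by a lentivirus given into the airway that carries Cre, Cas9 and a guide RNA. The groups, *K-Ctrl* with 4 tumors and *K-Setd2KO* with 4, therefore share the *K* background, Cre and Cas9. They differ in the guide, which was directed against GFP, a sequence the mouse lacks, in *K-Ctrl* and against *Setd2*, the gene of a histone H3 lysine 36 methylating enzyme, in *K-Setd2KO*. Cre and Cas9 act only in cells that the virus reached, and whether any macrophages were among them was not measured. The labels name the cell type as lung adenocarcinoma, whereas the study describes *K* tumors as low grade adenomas. The design text speaks of flash-frozen tumors and the extraction text of cell lines, and age at harvest is not given in the sources used here.

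Macrophages of the lung come from more than one source. Alveolar macrophages are seeded early in life and live in the airspaces, while interstitial and tumor-associated macrophages are replenished in large part from monocytes of the blood. Monocytes leave the bone marrow through the chemokine receptor CCR2, depend on signaling through the CSF1 receptor, and as they mature into macrophages they turn on complement C1q, the adhesion receptor F4/80 and, in tumors and lipid-rich tissue, the lipid receptor TREM2. In bulk tumor RNA, fewer cells of a type and less RNA per cell cannot be told apart.

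Library totals lay between 5806599 counts (*K-Setd2KO* replicate 4) and 21290402 counts (*K-Ctrl* replicate 3), so that 3 counts corresponded to 0.138 to 0.513 CPM (counts divided by library size after TMM scaling). The targeted gene *Setd2* was at 132 to 153 CPM in *K-Ctrl* and 121 to 153 CPM in *K-Setd2KO*, so total *Setd2* RNA did not separate the groups, and the count of reads over a whole gene does not show a small edit. The tumors carried lung epithelial RNA, with *Nkx2-1*, a transcription factor gene of the lung epithelial lineage, at 510 ± 130 and 649 ± 201 CPM (n = 4 each, SD). By sex-specific genes, 1 *K-Ctrl* tumor and 3 *K-Setd2KO* tumors were female, so sex and genotype are partly confounded. Replicate tumors differed from each other by far more than sampling noise (at least 30.5 per degree of freedom by chi-square). The labels do not say whether they came from separate mice, so p-values measure only the spread between these tumors, which may share a mouse.

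To examine which of the 9 genes differed between the genotypes, all tested genes were fitted together with edgeR's quasi-likelihood test. *Csf1r*, the receptor for the growth factors CSF1 and IL-34, and *Adgre1*, which encodes the macrophage surface receptor F4/80, were lower in *K-Setd2KO* tumors by about 3-fold. *Ccr2*, *Trem2*, *Ms4a7*, the 3 C1q chain genes and *Cx3cr1* did not pass the test. The 2 of 9 called lower stand against 7.74% of all tested genes called lower, and 0 of 9 called higher stand against 4.97%. These shares depend on the tumors and the model: of all tested genes, 1155 were called lower and 742 higher, and without *K-Ctrl* replicate 3 they numbered 539 and 224. At an unadjusted p under 0.05, 4 of the 9 were lower, against 16.3% of all tested genes. All 9 fitted log2 fold changes were negative, with a median of −0.66, whereas the median over all tested genes was 0.03.

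**Figure D1:**
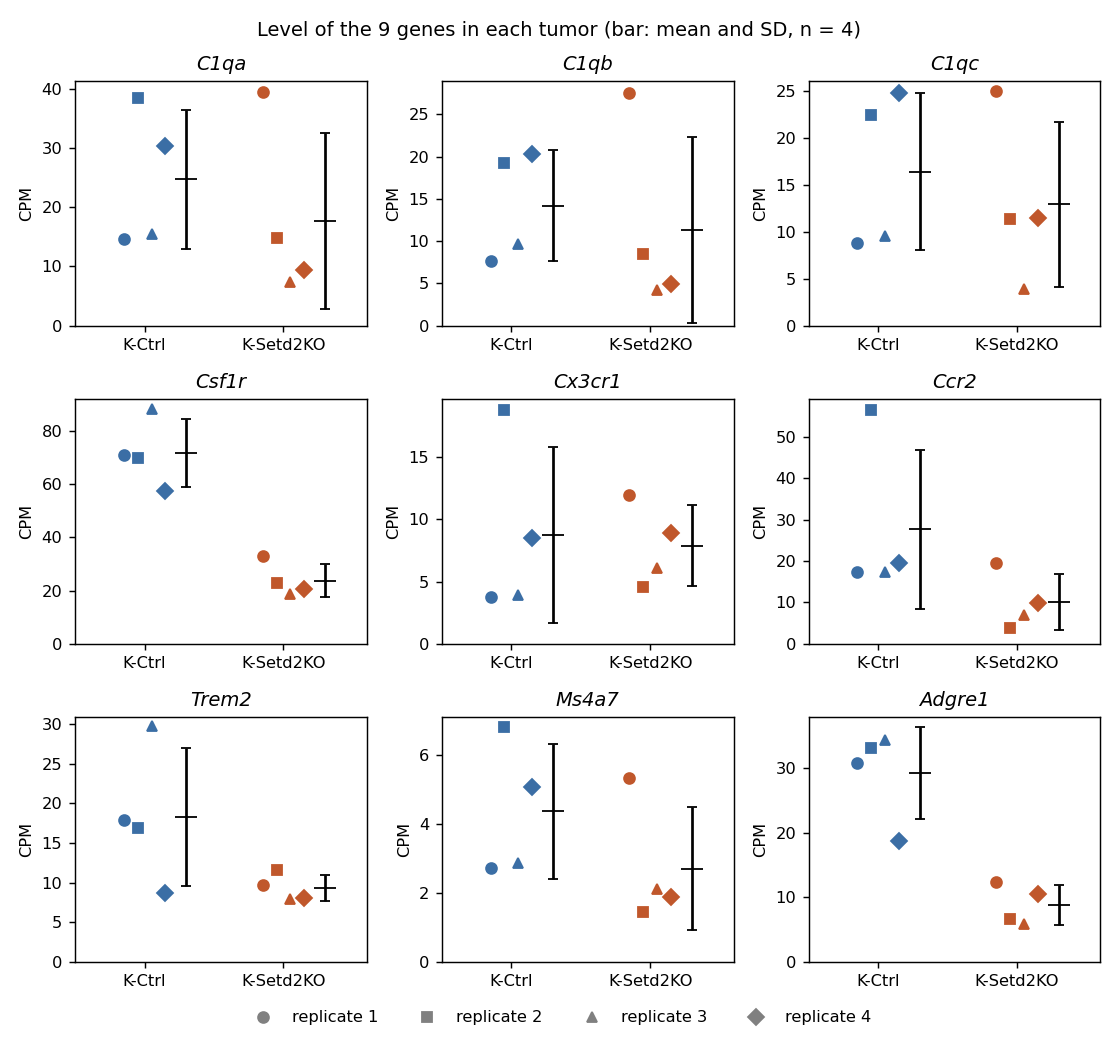
CPM of each of the 9 genes in the 8 tumors, with 1 panel per gene and 1 point per tumor, 4 in each group, and the mean and SD beside them. The groups do not overlap for *Csf1r* and *Adgre1*, and overlap for the other 7 genes.

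Survival and identity receptors came first. *Csf1r* (ENSMUSG00000024621, chr18:61105572-61132149, plus strand, GRCm38) was at 71.0, 69.8, 88.5 and 57.5 CPM in *K-Ctrl* replicates 1 to 4. Across *K-Setd2KO* tumors, in the same order, it was at 32.9, 22.7, 18.7 and 20.7 CPM. The groups did not overlap, and the highest *K-Setd2KO* tumor was replicate 1. Means were 71.7 ± 12.8 and 23.8 ± 6.31 CPM (n = 4 each, SD), 3.01-fold lower in *K-Setd2KO* (log2 fold change −1.59, SE 0.206, 95% interval −2.05 to −1.12, edgeR adjusted p = 0.00574). Of the 4885 exonic bases of *Csf1r*, 873 overlap exons of *Mir6983* or *Hmgxb3*, and reads there may belong to either gene.

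*Adgre1* (chr17:57358686-57483529, plus strand) was at 30.8, 33.1, 34.3 and 18.7 CPM in *K-Ctrl* replicates 1 to 4. The *K-Setd2KO* tumors, in order of replicate, had 12.3, 6.65, 5.91 and 10.4 CPM. The groups did not overlap, with *K-Ctrl* replicate 4 nearest to the *K-Setd2KO* tumors. The mean fell from 29.2 ± 7.16 to 8.83 ± 3.06 CPM (n = 4 each, SD), 3.31-fold (log2 fold change −1.73, SE 0.289, 95% interval −2.38 to −1.08, edgeR adjusted p = 0.00945). With *Csf1r* it made up 2 of 9 genes without overlap of CPM between the groups in the lower direction, where 11.2% of all tested genes showed the same separation. None of the 9 separated in the higher direction, where 9.06% of all tested genes did.

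Both genes were also lower within each sex. The male *K-Setd2KO* tumor was below the mean of the 3 male *K-Ctrl* tumors by a log2 CPM difference of −1.92 for *Csf1r* and −2.17 for *Adgre1*. Among females, with 3 *K-Setd2KO* tumors and 1 *K-Ctrl* tumor, the differences were −1.48 and −1.79. These within-sex differences have a single tumor on one side and carry no test. With sex as a term in the fit, the log2 fold changes were −1.69 for *Csf1r* (adjusted p = 0.0124) and −1.99 for *Adgre1* (adjusted p = 0.0155).

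**Figure D2:**
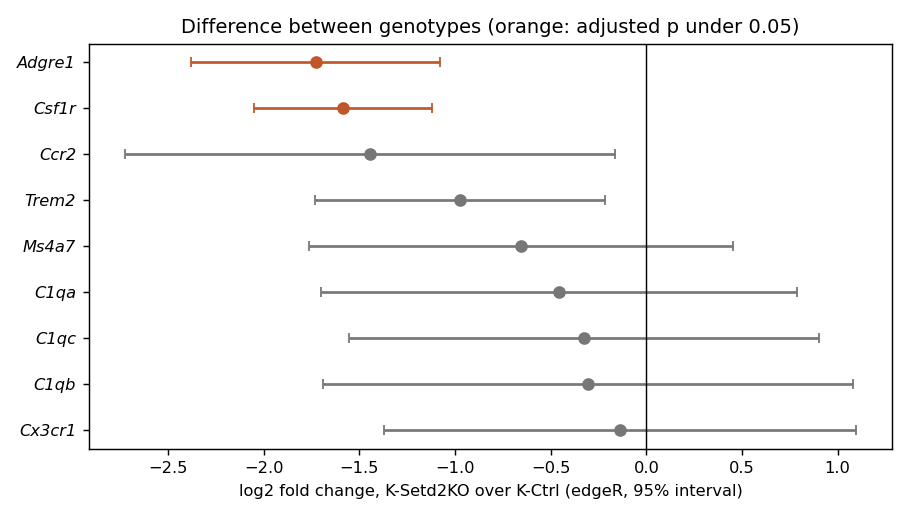
Log2 fold change (*K-Setd2KO* over *K-Ctrl*) of each of the 9 genes, with its 95% interval from the edgeR fit. The intervals of *Csf1r*, *Adgre1*, *Ccr2* and *Trem2* lie below 0, and of these *Csf1r* and *Adgre1* have an adjusted p under 0.05.

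The chemokine receptors mark monocytes and the cells that they become. *Ccr2*, the receptor for the monocyte attractant CCL2, lies at chr9:124101950-124113557 on the plus strand. It was at 17.2, 56.6, 17.4 and 19.5 CPM in the *K-Ctrl* tumors, in order of replicate, and at 19.6, 3.75, 7.01 and 9.93 CPM in those of *K-Setd2KO*. *K-Ctrl* replicate 2 stood far above the other tumors of its group, and *K-Setd2KO* replicate 1 lay within the *K-Ctrl* range. The fitted log2 fold change was −1.44 (SE 0.565, 95% interval −2.72 to −0.16, edgeR adjusted p = 0.126), and without *K-Ctrl* replicate 2 it was −0.83 (adjusted p = 0.317). T cells can also express *Ccr2*, and the summed CPM of 18 T and NK cell genes was 157 in *K-Ctrl* replicate 2 against 60.1 to 74.6 in the other *K-Ctrl* tumors and 9.51 to 54.0 in *K-Setd2KO*. The part of those cells in the *Ccr2* values was not tested. *Ccr2* passed in DESeq2 (log2 fold change −1.46, adjusted p = 0.0352), where 10.6% of genes were called lower.

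*Cx3cr1* encodes the receptor for fractalkine, is high on patrolling monocytes and on some tissue macrophages, and lies at chr9:119901616-120068283 on the minus strand. Its CPM was 3.75, 18.8, 3.88 and 8.48 in the *K-Ctrl* tumors, in order of replicate, and 11.97, 4.59, 6.09 and 8.90 in those of *K-Setd2KO*. The groups overlapped, and the highest value was again that of *K-Ctrl* replicate 2. Means of 8.73 ± 7.08 and 7.89 ± 3.25 CPM (n = 4 each, SD) gave a log2 fold change of −0.14 (SE 0.546, 95% interval −1.37 to 1.10, edgeR adjusted p = 0.890). This interval holds changes of more than 2-fold in either direction, and without *K-Ctrl* replicate 2 the fitted value was 0.56 (adjusted p = 0.467). Within males the difference in log2 CPM was 0.28, and within females it was −1.24. Each has a single tumor on one side and carries no test, and the only female *K-Ctrl* tumor was replicate 2.

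*Trem2*, a receptor for lipids and apolipoproteins that signals through the adaptor TYROBP, lies at chr17:48346401-48354147 on the plus strand. Its CPM was 17.9, 16.9, 29.8 and 8.66 in the *K-Ctrl* tumors, in order of replicate, and 9.71, 11.5, 7.94 and 8.04 in those of *K-Setd2KO*. The *K-Setd2KO* tumors lay close together, and *K-Ctrl* replicate 4 lay among them. The log2 fold change was −0.97 (SE 0.336, 95% interval −1.73 to −0.22, edgeR adjusted p = 0.0876). Without *K-Ctrl* replicate 4 the gene passed (log2 fold change −1.21, adjusted p = 0.0212), and it passed in DESeq2 (adjusted p = 0.0381). Without *K-Ctrl* replicate 3, the highest tumor, it was −0.64 (adjusted p = 0.232).

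*Ms4a7*, a tetraspan membrane protein gene of macrophages at chr19:11321039-11336146 on the minus strand, had the fewest reads. Its CPM was 2.71, 6.81, 2.86 and 5.09 in the *K-Ctrl* tumors, in order of replicate, and 5.34, 1.45, 2.12 and 1.88 in those of *K-Setd2KO*. The value of *K-Setd2KO* replicate 1 lay above those of 3 *K-Ctrl* tumors. The value of *K-Setd2KO* replicate 4 rested on 11 counts, with an exact 95% Poisson interval of 0.940 to 3.37 CPM that covers counting error only. The log2 fold change was −0.66 (SE 0.493, 95% interval −1.77 to 0.45, edgeR adjusted p = 0.408), so a difference was not detectable at this depth and spread. It was −1.25 without *K-Setd2KO* replicate 1 (adjusted p = 0.110) and −0.36 without *K-Ctrl* replicate 2 (adjusted p = 0.712).

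C1q is the recognition molecule of the classical complement pathway, assembled from A, B and C chains that are encoded by neighboring genes. All lie on the minus strand of mouse chromosome 4 within 18675 bases, with *C1qb* at chr4:136880129-136886187, *C1qc* at chr4:136889804-136893065 and *C1qa* at chr4:136895917-136898803. To show the sequence in front of this gene cluster, upstream sequence of *C1qb* and *C1qc* was read from RefSeq (GRCm38.p6). The 250 bases of *C1qb* (chr4:136886201-136886450, minus strand) and 99 bases of *C1qc* (chr4:136893066-136893164, minus strand) are given in the direction of transcription. For *C1qc*, the bases nearest to the RefSeq start lie inside the gene as annotated in the count table and are not printed. Capitals mark the letters GAGGAA on either strand, the core of the site bound by PU.1, a factor of myeloid cells encoded by *Spi1*. For *C1qc* they mark the longer form GAGGAAGT, which contains the shorter one.
C1qb: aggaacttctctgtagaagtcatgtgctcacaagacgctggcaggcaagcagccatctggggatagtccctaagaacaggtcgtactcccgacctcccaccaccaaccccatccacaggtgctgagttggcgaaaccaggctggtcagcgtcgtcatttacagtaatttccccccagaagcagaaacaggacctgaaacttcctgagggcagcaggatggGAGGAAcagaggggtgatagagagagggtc
C1qc: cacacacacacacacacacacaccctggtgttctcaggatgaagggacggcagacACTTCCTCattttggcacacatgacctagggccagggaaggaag

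The letters GAGGAA stood on the plus strand of *C1qb* at position −30 from the RefSeq start and on the opposite strand of *C1qc* at −193. *Trem2* held them on the opposite strand at −40, in the following 250 bases (chr17:48346151-48346400, plus strand, RefSeq GRCm38.p6), again in capitals.
Trem2: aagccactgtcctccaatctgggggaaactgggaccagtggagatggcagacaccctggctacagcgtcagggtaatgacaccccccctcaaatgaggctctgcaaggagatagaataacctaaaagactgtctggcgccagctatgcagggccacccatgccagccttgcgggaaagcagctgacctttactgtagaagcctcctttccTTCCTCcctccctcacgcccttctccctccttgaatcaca

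RefSeq entries were matched for 6 of the 9 genes (*C1qb*, *C1qc*, *Cx3cr1*, *Ccr2*, *Trem2* and *Ms4a7*). They gave 7 promoters, since *Ms4a7* has 2. Of the 7 promoters, 3 held GAGGAA in the 250 bases upstream of the RefSeq start, against 23.3% of all 32851 promoters in the table. The longer GAGGAAGT stood in 1 of the 7 and in 2.44% of all promoters. The MAF recognition letters TGCTGAC stood in 0 of the 7 (3.81% of all) and the TATA box TATAAA in 0 of the 7 (12.4% of all), with both strands searched. For *C1qc* and *Ccr2*, most of these 250 bases lie inside the annotated gene, as do all bases of 1 of the *Ms4a7* promoters. A match of letters is a description of the sequence and not a measure of binding.

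*C1qa* was at 14.6, 38.6, 15.4 and 30.3 CPM in the *K-Ctrl* tumors, in order of replicate, and at 39.5, 14.8, 7.29 and 9.41 CPM in those of *K-Setd2KO*. The corresponding CPM of *C1qb* was 7.63, 19.2, 9.60 and 20.3 in *K-Ctrl* and 27.6, 8.41, 4.15 and 4.96 in *K-Setd2KO*. For *C1qc* it was 8.80, 22.4, 9.60 and 24.8 in *K-Ctrl* and 25.01, 11.4, 3.88 and 11.5 in *K-Setd2KO*. The top 3 tumors were shared by the chain genes: *K-Setd2KO* replicate 1 was the highest of all 8 for each, and *K-Ctrl* replicates 2 and 4 were the next, in either order. The other 3 *K-Setd2KO* tumors were at or below 14.8 CPM for *C1qa*.

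None of the C1q genes passed the test. Log2 fold changes were −0.46 for *C1qa* (SE 0.550, 95% interval −1.70 to 0.79), −0.30 for *C1qb* (SE 0.612, 95% interval −1.69 to 1.08) and −0.33 for *C1qc* (SE 0.544, 95% interval −1.56 to 0.90). Adjusted p-values from edgeR were 0.619, 0.777 and 0.725. Leaving out *K-Setd2KO* replicate 1 moved these values the most of the 8 tumors: without it they were −1.23, −1.26 and −0.88, with adjusted p of 0.102, 0.103 and 0.302. Within each sex, all 3 differences were negative, from −1.69 to −1.36 in log2 CPM in males and from −1.12 to −0.59 in females.

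**Figure D3:**
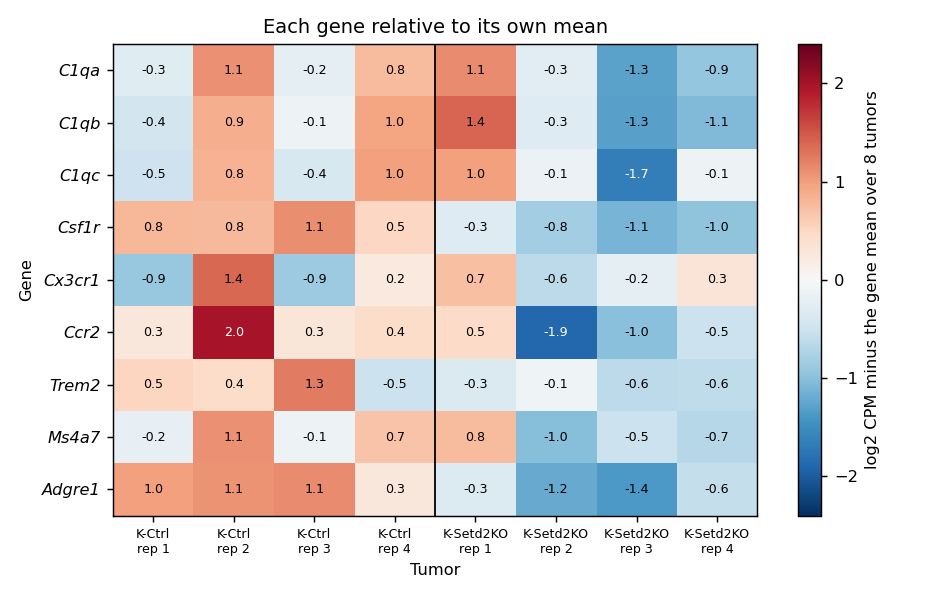
Log2 CPM of each of the 9 genes in each tumor, relative to the mean of that gene over the 8 tumors. *K-Setd2KO* replicate 1 stands high in the C1q chain genes, *K-Ctrl* replicate 2 stands high in *Ccr2* and *Cx3cr1*, and *Csf1r* and *Adgre1* divide the tumors by genotype.

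To compare the chains with one another, levels were scaled per length (RPKM) and each gene was expressed as a share of the sum over the 3 chains. *C1qa* took 52.6% ± 3.503 of the sum in *K-Ctrl* and 50.4% ± 3.43 in *K-Setd2KO* (n = 4 each, SD, two-sided exact permutation p = 0.4). *C1qb* took 28.9% ± 2.21 and 28.5% ± 4.12 (n = 4 each, SD, exact permutation p = 0.857). *C1qc* took 18.5% ± 1.81 and 21.05% ± 6.65 (n = 4 each, SD, exact permutation p = 0.686), and its highest share was 30.4% in *K-Setd2KO* replicate 4, from 67 counts. None of the 3 shares passed at an unadjusted p under 0.05, and the lowest p this design of 4 against 4 allows is 0.0286. Over the 8 tumors the shares ranged from 46.3% to 55.9% for *C1qa*, from 23.3% to 33.2% for *C1qb* and from 15.6% to 30.4% for *C1qc*. Without *K-Setd2KO* replicate 4 the difference in the *C1qc* share turned from 2.59 to −0.52 percentage points and that in the *C1qb* share from −0.40 to 1.33.

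On the same per-length scale, *C1qa* had the highest mean level of the 9 genes in both groups, at 23.8 RPKM in *K-Ctrl* and 17.1 RPKM in *K-Setd2KO*. In *K-Ctrl* the next was *Csf1r* at 14.7 RPKM, ahead of *C1qb* at 13.1 RPKM. In *K-Setd2KO* it was at 4.87 RPKM, behind *C1qb* at 10.4 and *C1qc* at 6.70 RPKM. *Ms4a7* was the lowest in both groups, at 0.981 and 0.606 RPKM. In *K-Ctrl* every neighboring pair in this order differed by less than the larger of its SDs, *C1qa* and *Csf1r* included. In *K-Setd2KO* the same held for every neighboring pair except *Csf1r* and *Adgre1*, the latter at 2.72 RPKM.

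To set each gene against leukocyte RNA as a whole, its log2 CPM was expressed relative to the mean log2 CPM of 20 pan-leukocyte genes in the same tumor. Of these 20 genes, 17 were lower in *K-Setd2KO* and 0 higher, the median log2 fold change being −1.63, and their summed level was 1587 to 2895 CPM in *K-Ctrl* and 846 to 1097 CPM in *K-Setd2KO*. Relative to this level *Csf1r* differed by −0.07 (exact permutation p = 0.771) and *Adgre1* by −0.20 (exact permutation p = 0.429). No difference of *Csf1r* or *Adgre1* from the leukocyte genes was detectable with 4 tumors a group. The sign of both depended on the reference. Against *Ptprc* alone they differed by 0.40 (exact permutation p = 0.257) and 0.27 (exact permutation p = 0.4). Against the pan-macrophage and interstitial macrophage list they differed by −0.41 (exact permutation p = 0.0286, the smallest possible) and −0.54 (exact permutation p = 0.0571), with an adjusted p of at least 0.257 over the 9 genes.

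None of the other 7 genes passed the adjusted test, and their log2 ratio differences were above 0, with *Ccr2* at 0.05 falling to −0.29 against the macrophage list and to −0.23 without *K-Setd2KO* replicate 1. *Cx3cr1* differed by 1.62 in log2 ratio, without overlap between the groups (−4.05 to −2.08 in *K-Ctrl* and −2.06 to −0.95 in *K-Setd2KO*), at an exact permutation p = 0.0286 and an adjusted p = 0.257 over the 9 genes. The nearest tumors of the 2 groups were almost level (−2.08 and −2.06), and the exact permutation p was 0.0571 with a prior count of 0.5 and 0.143 against the macrophage list. Against *Ptprc* alone, *Cx3cr1* differed by 2.09 and *Trem2* by 1.15 (exact permutation p = 0.0286 for both, adjusted p = 0.129). *C1qa*, *C1qb* and *C1qc* differed by 0.86, 0.90 and 1.07, and *Ms4a7*, *Trem2* and *Ccr2* by 0.80, 0.68 and 0.05 (exact permutation p from 0.0571 to 0.971). With 9 genes and a smallest possible p of 0.0286, an adjusted p under 0.05 needs several genes at that smallest value. The 36 log2 ratios between pairs of the 9 genes were compared after their values had been seen. None passed (lowest adjusted p = 0.343), and the 2 pairs with an exact permutation p = 0.0286 were *Cx3cr1* over *Adgre1* (1.82 higher in *K-Setd2KO*) and *Cx3cr1* over *Ccr2* (1.57 higher).

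**Figure D4:**
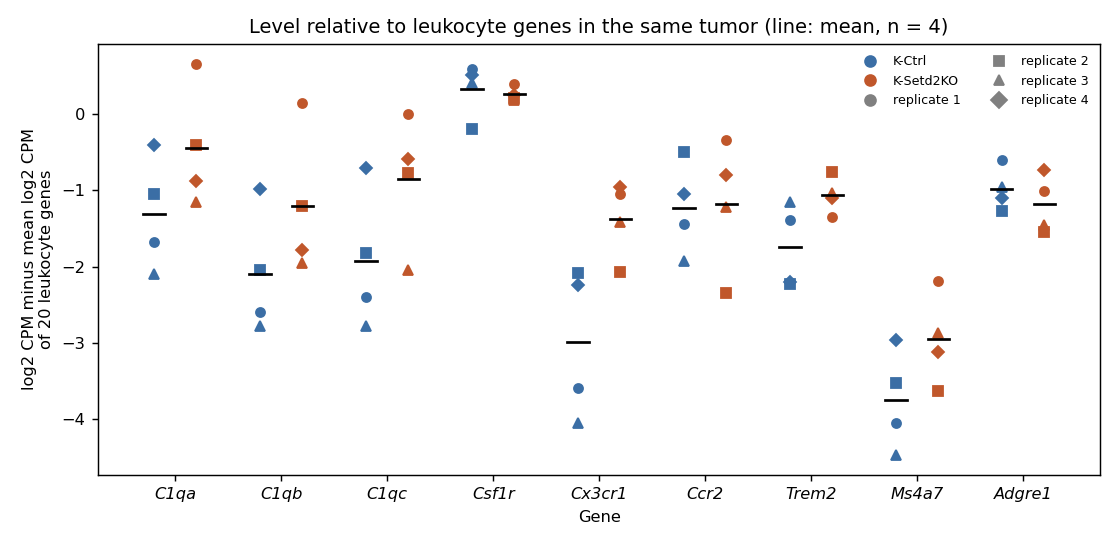
Log2 ratio of each of the 9 genes to the mean of 20 pan-leukocyte genes in the same tumor, with 1 point per tumor, 4 in each group, and a line at each mean. *Csf1r* and *Adgre1* overlap between the groups on this scale, and *Cx3cr1* does not, at −4.05 to −2.08 in *K-Ctrl* and −2.06 to −0.95 in *K-Setd2KO*.

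The partners of these genes were examined next, in the order of the pathways. *Csf1*, the main ligand of CSF1R, fell from a mean of 16.3 ± 4.45 CPM to 4.57 ± 3.31 CPM (n = 4 each, ± SD; log2 fold change −1.82, edgeR adjusted p = 0.0428). *Il34*, the other ligand, did not pass (0.22, adjusted p = 0.624). *Spi1*, which encodes PU.1, fell from 31.8 ± 11.7 to 9.26 ± 2.31 CPM (−1.77, adjusted p = 0.0102). Counts of lower and higher genes in the lists below stand against 7.74% of all tested genes called lower and 4.97% called higher. Of 20 tested genes of the CSF1R axis and macrophage transcription factors, 10 were lower and 1 higher, with a median log2 fold change of −1.16. *Zeb2*, a transcription factor of macrophage identity, led the lower genes (−1.82, adjusted p = 0.00560), and the higher one was *Cebpa* (0.89, adjusted p = 0.00834), which alveolar epithelium also expresses.

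Among chemokine ligands, the CCR2 ligand *Ccl2* was at 1.492 ± 1.499 and 0.573 ± 0.828 CPM (n = 4 each, SD; log2 fold change −1.20, edgeR adjusted p = 0.477). *Ccl7* had 69 counts in all 8 tumors together and was not tested. *Cx3cl1*, which encodes fractalkine, was at 25.5 ± 3.66 and 36.7 ± 7.74 CPM (0.52, adjusted p = 0.0919). Of 15 tested chemokine genes, other receptors and sheddases, 2 were lower and 0 higher (median −1.09), led by the receptor gene *Cxcr4* (−1.77, adjusted p = 0.00791).

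In the TREM2 pathway, the adaptor gene *Tyrobp* fell from a mean of 75.8 ± 13.3 CPM to 29.9 ± 6.72 CPM (n = 4 each, ± SD; log2 fold change −1.34, edgeR adjusted p = 0.00643). The lipid carrier gene *Apoe* fell by 0.80 on the log2 scale (adjusted p = 0.0451). Of 22 tested genes of TREM2 signaling and lipid handling, 9 were lower and 1 higher, with a median of −1.14. *Gpnmb*, a glycoprotein of lipid-laden macrophages, led the lower genes (−2.14, adjusted p = 0.00560). The higher one was the endosomal tetraspanin gene *Cd63* (1.08, adjusted p = 0.00643), which many cell types express.

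Of 25 tested complement genes beyond C1q, 9 were lower and 0 higher (median −0.82), led by *Itgb2* (−2.03, edgeR adjusted p = 0.00560), a subunit of leukocyte integrins that include complement receptors and also 1 of the 20 pan-leukocyte genes. *Serping1*, which encodes the C1 inhibitor, fell from a mean of 112 ± 24.1 CPM to 36.8 ± 17.5 CPM (SD, n = 4 each; −1.60, adjusted p = 0.0168). The protease genes that C1q activates did not pass, with *C1ra* at 0.17 (adjusted p = 0.750) and *C1s1* at −1.43 (adjusted p = 0.0878), nor did *C3*, the central component (−0.94, adjusted p = 0.331). Of 7 tested other *Ms4a* genes, 3 were lower and 0 higher (median −1.44), led by *Ms4a4d* (−1.91, adjusted p = 0.0229). Of 9 other adhesion G protein-coupled receptor genes, 2 were lower and 0 higher (median −0.55), led by *Adgrl2* (−0.55, adjusted p = 0.0159), which endothelium expresses.

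Macrophage genes of other kinds gave the setting of the 9. Of 31 tested pan-macrophage and interstitial macrophage genes, 13 were lower and 0 higher (median −1.51), and of 20 tested alveolar macrophage genes 13 were lower and 0 higher (median −2.01). The mannose receptor gene *Mrc1* led both lists (log2 fold change −2.22, edgeR adjusted p = 0.00560). Alveolar macrophages express *Csf1r* and *Adgre1* too, and the summed alveolar macrophage genes were at 2632 to 7905 CPM in *K-Ctrl* and 653 to 2889 CPM in *K-Setd2KO*. The part of alveolar macrophages in the *Csf1r* and *Adgre1* values was not tested. Of 18 tested macrophage activation genes 2 were lower (median −0.77), led by *Cd274* (−1.83, adjusted p = 0.0104), which encodes PD-L1. Of 14 tested monocyte genes 1 was lower, *Spn* (−1.86, adjusted p = 0.0174), and 3 were higher, led by *Ly6c1* (0.84, adjusted p = 0.0181), which endothelium also expresses. The median over the monocyte genes was −0.44. It turned to 0.31 with at least 10 counts in every tumor (11 genes tested) and was negative under every other setting. Of all tested genes, 7.74% were called lower and 4.97% higher. The 1 of 14 monocyte and 2 of 18 activation genes called lower lie near the first of these shares.

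Markers of other cell types were counted in the same way, against the same 7.74% of all tested genes called lower and 4.97% called higher. Of 14 tested dendritic cell genes 4 were lower (median −1.62), led by *Ccr7* (log2 fold change −3.29, edgeR adjusted p = 0.0102). Of the 20 pan-leukocyte genes the smallest p belonged to *Laptm5*, a lysosomal protein gene of blood cells (−1.80, adjusted p = 0.00506), and *Ptprc*, which encodes CD45, fell from a mean of 231 ± 89.8 CPM to 54.4 ± 6.87 CPM (SD, n = 4 each; −2.08, adjusted p = 0.00560). Lower genes numbered 2 of 11 for T and NK cells, led by *Cd2* (−2.53, adjusted p = 0.00574), and 1 of 7 for B cells, *Cd22* (−2.24, adjusted p = 0.00643). They numbered 1 of 8 for neutrophils, *Mmp8* (−2.05, adjusted p = 0.0357), and 2 of 3 for mast cells, basophils and eosinophils, led by *Siglecf* (−1.68, adjusted p = 0.0335), which alveolar macrophages also express. Lower genes were 2 of 12 for endothelium, led by *Cdh5* (−1.93, adjusted p = 0.0350), and 4 of 12 for fibroblasts, led by *Fbln1* (−2.42, adjusted p = 0.0135). Of 20 epithelial genes 5 were higher, led by *Elf3* (1.35, adjusted p = 0.00560), and 1 was lower, *Napsa* (−1.60, adjusted p = 0.0338). The 1 of 20 epithelial genes called lower lies near the share over all tested genes, and the B cell and neutrophil counts rest on 1 gene each. Medians were −1.65, −2.14, 0.39 and −1.68 for the T and NK cell, B cell, neutrophil, and mast cell, basophil and eosinophil lists, −1.28 for endothelium, −1.17 for fibroblasts and 0.34 for epithelium. The B cell median turned to 0.38 with at least 10 counts in every tumor (3 genes tested) and was negative under every other setting. The T and NK cell median was −0.88 without *K-Ctrl* replicate 2 and −2.67 with sex as a term. The parts of these cell types in the values of the 9 genes were not tested. No gene of the pan-leukocyte, lymphocyte, granulocyte, endothelial and fibroblast lists was called higher by edgeR.

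**Figure D5:**
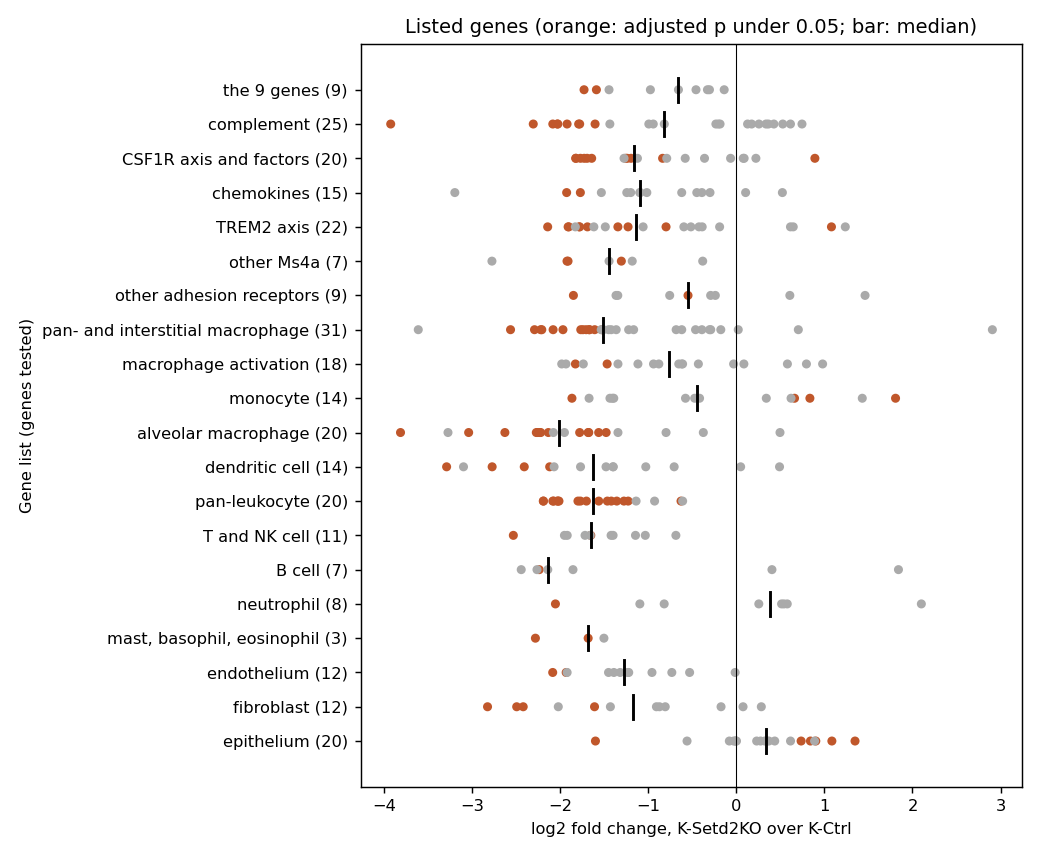
Log2 fold change (*K-Setd2KO* over *K-Ctrl*) of each tested gene, in 1 row per list with the number of genes tested; orange points have an edgeR adjusted p under 0.05, gray points do not, and a bar marks the median of the list. Most immune and stromal lists have medians below that of the 9 genes (−0.66), and the epithelial list lies above 0.

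Over all lists together, 104 of 282 tested genes were called (94 lower and 10 higher), where 12.7% of all tested genes were called in either direction. Genes that stand in 2 lists were counted once. The lists were chosen with earlier results of these data known, so this share describes the lists and does not test them.

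Genes with profiles closest to the mean profile of the 9 were sought over the 8 tumors, by the root mean square difference in centered log2 CPM. The closest was *Fyb* at 0.18, which encodes an adaptor of T cells and myeloid cells. Other near genes were *Ly86*, which encodes the MD-1 partner of a Toll-like receptor on myeloid and B cells, *Adam8*, *Parp14*, *Ccnb1*, *Frmd5* and *Gm9403*, at 0.25 to 0.28. The 9 genes themselves lay at 0.28 (*Ms4a7*) to 0.70 (*Trem2*) from their own mean, and the median over all tested genes was 0.78. The search over many genes and 8 tumors describes likeness of profile in these libraries only.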

How the data were processed

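RNA of 8 mouse lung tumors was sequenced after poly(A) selection with a stranded library kit. As deposited by the authors, the values were raw counts per gene, not normalized, 1 column per tumor and GRCm38 coordinates. The submitters' processing notes name STAR 2.5.2b, featureCounts 1.5.0-p1 and the build GRCm38.p4. The annotation release and the strand setting are not given in the sources used here, so reads of overlapping genes may not be separable. Poly(A) counts are per gene and do not separate transcripts. Symbols came from GENCODE M21, which matched 99.3% of the 48709 genes. Groups came from the labels. 

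Counts were fitted in R 4.3.3 with edgeR 4.0.16 (filterByExpr, TMM factors, robust quasi-likelihood test of genotype, no covariate), with Benjamini-Hochberg adjustment over 14929 genes and a threshold of 0.05. CPM was scaled by TMM factors, and log2 CPM used a prior count of 2. RPKM used the deposited gene lengths. Ratios and shares were compared by two-sided exact permutation over the 70 assignments of 4 and 4 tumors. Intervals of counts are exact Poisson intervals and, like the limit of 3 counts, cover counting error only. Alternatives were DESeq2 1.42.0 (the tool of the study), limma 3.58.1 (voom), RLE and upper-quartile factors, other filters on low counts, the replicate number as a block, sex as a term, each tumor left out in turn, and other references for the ratio. The fit was tested on simulated data.

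The 9 genes, the lists and the rule for named genes were chosen with earlier results of these data known. Named were the 9 genes, 13 fixed partner genes, the called gene with the smallest p in each direction of each list, and the 8 genes nearest in profile, of which 1 is not reported here. *Nkx2-1* was chosen after its values were seen. Of 333 listed genes, 331 were found in the table. Total counts of 5806599 to 21290402 limit the precision of the genes with fewest reads.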

Additional observations from a re-analysis of the deposited data

Results flagged for a closer look

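In *K-Ctrl*, replicate 2 stood apart for *Ccr2*, at 56.6 CPM, where the nearest tumor was at 19.5 CPM and the lowest at 17.2 CPM. *K-Ctrl* replicate 4 stood apart for the share of *C1qc* in summed C1q, at 21.2%, where the nearest tumor was at 17.8% and the lowest at 17.4%. Both were found by the gap to the nearest tumor relative to the spread from highest to lowest. Of 42 groups of 4 tumors checked, 2 stood out in this way, and chance gives about 2.1.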

How the results depend on the processing

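*Csf1r* and *Adgre1* kept an adjusted p under 0.05 in all 16 alternatives, at log2 fold changes of −1.79 to −1.47 (adjusted p from 3.64e-09 to 0.0212) and −1.99 to −1.57 (adjusted p from 1.32e-06 to 0.0336). The number of the 9 genes called was 2 by edgeR and 4 by DESeq2, which added *Ccr2* and *Trem2*, and with tumors left out in turn it was 2 to 3. Over all genes, 1897 were called by edgeR, 3211 by DESeq2 and 1237 with sex as a term, and 763 to 2058 with tumors left out (763 without *K-Ctrl* replicate 3, 938 without *K-Ctrl* replicate 1, 1126 without *K-Ctrl* replicate 2, 1011 without *K-Setd2KO* replicate 3). Genes called higher went from 742 to 403 with the replicate block, 453 with sex as a term and 1234 with DESeq2, and genes called lower from 1155 to 1977 with DESeq2. For the listed genes, the 104 called became 65 to 110 with tumors left out. *Cx3cr1* changed sign from −0.14 to 0.28 with voom, 0.13 with the replicate block, 0.56 without *K-Ctrl* replicate 2 and 0.05 without *K-Setd2KO* replicate 2 (−0.42 to 0.56 with tumors left out), and passed under none of the 16 alternatives. The cause of these changes was not tested.

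The number of lower genes of several lists moved by over 1.5 times. With 1 tumor left out, the fewest lower genes were 5 of 9 for complement, 5 of 10 for the CSF1R axis, 0 of 3 for *Ms4a*, 7 of 13 for alveolar macrophages, 2 of 4 for dendritic cells and for fibroblasts, 1 of 2 for T and NK cells, activation and adhesion receptor genes, and 0 for monocyte, endothelial, neutrophil, epithelial and mast cell, basophil and eosinophil lists. *K-Setd2KO* replicate 3 (complement, CSF1R axis, *Ms4a*, dendritic, monocyte) and *K-Ctrl* replicate 3 (*Ms4a*, alveolar macrophage) gave those lowest counts. The most were 4 for chemokines and endothelium, 3 for B cells and 2 for monocytes and epithelium. With DESeq2, chemokine genes went from 2 to 5, *Ms4a* genes from 3 to 5, activation genes from 2 to 4, monocyte genes from 1 to 3, dendritic cell genes from 4 to 9, T and NK cell genes from 2 to 4, B cell genes from 1 to 5 and endothelial genes from 2 to 8. With sex as a term, alveolar macrophage genes went from 13 to 8, dendritic cell genes from 4 to 8, T and NK cell genes from 2 to 6, activation genes from 2 to 4, B cell genes from 1 to 3, monocyte genes from 1 to 2, fibroblast genes from 4 to 2 and adhesion receptor genes from 2 to 1. Endothelial, neutrophil, epithelial and mast cell, basophil and eosinophil lists then had 0 lower genes. Without a filter on low counts, alveolar macrophage genes went to 8, B cell genes to 3, fibroblast genes to 2, adhesion receptor genes and mast cell, basophil and eosinophil genes to 1, and endothelial and epithelial genes to 0. With at least 10 counts in every tumor, dendritic cell genes went to 1 and neutrophil genes to 0, with fewer genes tested.

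Replicate numbers did not pair the tumors: correlations of deviations between same-numbered tumors were −0.07 to 0.19, and 1 of 4 numbers matched itself best. With the replicate block, 1341 genes and the same 2 of the 9 were called, and endothelial genes went to 5, T and NK cell genes to 1 and neutrophil and epithelial lower genes to 0. With voom, 1764 genes were called, and the T and NK cell, endothelial, and mast cell, basophil and eosinophil lists had 1 lower gene each. For ratios to leukocyte genes, 0 to 2 of the 9 had an unadjusted exact p under 0.05 over the other references, prior count and RLE factors. The adjusted count of 0 says nothing about stability, since this design can hardly pass it. The number of C1q shares that passed was 0 with raw counts too. With a tumor left out, the exact test cannot go below 0.0571.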
